A study of Mus musculus with 3 samples.

Results

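Monocyte-like cells formed a small set of droplets among brain cells sorted for a microglial surface phenotype. A cell was placed in the set when it had more than 200 and at most 8000 detected genes, no more than 10% of its unique molecular identifiers (UMIs) in mitochondrial genes, at least 5 UMIs summed over Plac8, Ly6c2 and Chil3, and fewer than 100 UMIs summed over the neutrophil genes S100a8 and S100a9. This rule found 64 of the 17669 cells that passed the same limits on genes and mitochondrial UMIs. The set was chosen on measured expression, so its levels of the 3 gate genes are given as a description, and no p-value is attached to any difference between these cells and others.

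The study asked how the short and long isoforms of human CD33, an inhibitory sialic acid-binding receptor of myeloid cells, change mouse microglia. Brain cells came from mice of 8 weeks in 3 groups, hCD33m (the short isoform), hCD33M (the long isoform) and Control, whose genotype label is Wild type. Each transgene is a complementary DNA (cDNA) placed in the Rosa26 locus behind a stop cassette and followed by green fluorescent protein, and it is switched on by Cre recombinase driven from Cx3cr1, a gene that monocytes also express. The hCD33m line derives from an embryonic stem cell clone, the mice were on a C57BL/6 background, and cells of a pair of mice were pooled per genotype. Whether the Control mice of these libraries carried Cre is not given in the sources used here. For a phagocytosis assay and for in situ hybridization the paper describes wild-type controls that carried Cx3cr1-Cre. Cells were sorted as CD11b+, Cx3cr1+ and positive for CD45, given as CD45low in the paper's results and as CD45+ in its methods. The sort followed a dissociation in buffers with actinomycin D, triptolide and anisomycin, which block transcription and translation. There was 1 10x Chromium 3′ library per genotype, so every difference between genotypes is a difference between libraries and has no replicate check.

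The hCD33m, hCD33M and Control tables held 6257, 5920 and 6163 barcodes with 40629705, 36413491 and 32272657 UMIs, of which 6068, 5710 and 5891 barcodes passed the cell limits. The libraries shared few cell barcodes, between 4 and 12 per pair. The hCD33m sample is labelled Female and the other samples Male, whereas the methods describe male mice. All 3 libraries held the Y-linked gene Ddx3y, at 94.9 CPM (a gene's UMIs, scaled to a fixed total) in hCD33m, 105 CPM in hCD33M and 95.3 CPM in Control, and Xist was near 0 in each, so the hCD33m library did not match its sex label. Comparisons below set the monocyte-like cells against the 12933 other passing cells with at least 2000 UMIs (4929, 3907 and 4097 in hCD33m, hCD33M and Control), which expressed the microglial genes P2ry12, Tmem119 and Cx3cr1 in every library. Doublets were not called.

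Monocytes are made in the bone marrow and circulate in blood. Classical mouse monocytes carry the surface protein Ly6C and the chemokine receptor Ccr2, which draws them out of the marrow and into tissue, whereas nonclassical monocytes lose Ly6C, depend on the transcription factor Nr4a1 and patrol the inside of vessels. Microglia arise instead from yolk sac progenitors that settle in the brain before birth, are held by the transcription factor Sall1 and by transforming growth factor beta signalling, and express genes such as P2ry12 and Tmem119 that monocytes lack. A whole brain preparation holds some blood cells from its vessels, its meninges and its choroid plexus.

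All 64 monocyte-like cells held Plac8 UMIs, 44 held Ly6c2 UMIs and 25 held Chil3 UMIs. Plac8 encodes a small cysteine-rich protein of myeloid cells, Ly6c2 encodes a chain of the Ly6C surface antigen, and Chil3 encodes a secreted chitinase-like protein. Plac8 reached 2196, 2119 and 2052 CPM in monocyte-like cells of hCD33m, hCD33M and Control, and 1.51, 1.34 and 1.37 CPM in the other cells of those libraries. In the 49 cells of low microglial share described below, Plac8 stood at 2857, 3744 and 2455 CPM, so that its levels were close in the 3 libraries with all 64 cells only. Ly6c2 stood at 876, 481 and 592 CPM in the monocyte-like cells of hCD33m, hCD33M and Control and below 1 CPM in the other cells. Its near-identical neighbour Ly6c1 makes the Ly6c2 count uncertain. Chil3 stood at 158, 228 and 322 CPM in the monocyte-like cells, and at 0.0270, 0.0653 and 12.1 CPM in the other cells, which include 3 cells with 2252 to 10015 UMIs of S100a8 and S100a9 that the neutrophil limit kept out of the set. All 3 gate genes were detected in 17 of the 64 cells, Plac8 and Ly6c2 without Chil3 in 27, Plac8 and Chil3 without Ly6c2 in 8, and Plac8 alone in 12. None of the 8 cells with Plac8 and Chil3 only came from hCD33m, against 4 each from hCD33M and Control.

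Because these 3 genes decided which cells were kept, the 200 bases upstream of annotated starts are shown (RefSeq, GRCm38.p6), with 2 motifs of myeloid transcription factors in capitals. The motifs searched on both strands were the ETS core AGGAAGT, bound by the family of PU.1 (the product of Spi1), and TTNNGCAA, bound by C/EBP factors. All 3 genes lie on the minus strand. Plac8 has 2 annotated starts, at which the windows are chr5:100572206-100572405 and chr5:100563097-100563296, the Ly6c2 window shown is chr15:75111972-75112171 and the Chil3 window is chr3:106167565-106167764.
Plac8, first start: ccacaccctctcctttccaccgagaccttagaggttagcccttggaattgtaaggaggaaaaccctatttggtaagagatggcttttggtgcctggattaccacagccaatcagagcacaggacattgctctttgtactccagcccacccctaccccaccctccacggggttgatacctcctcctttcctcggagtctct
Plac8, second start: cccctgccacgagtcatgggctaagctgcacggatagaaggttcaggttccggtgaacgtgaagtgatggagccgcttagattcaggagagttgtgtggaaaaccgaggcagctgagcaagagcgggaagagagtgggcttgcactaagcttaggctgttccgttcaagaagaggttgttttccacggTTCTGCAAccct
Ly6c2: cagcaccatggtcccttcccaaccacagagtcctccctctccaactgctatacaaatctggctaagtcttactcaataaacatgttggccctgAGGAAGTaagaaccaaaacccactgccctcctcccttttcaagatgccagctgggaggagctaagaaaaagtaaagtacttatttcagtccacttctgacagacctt
Chil3: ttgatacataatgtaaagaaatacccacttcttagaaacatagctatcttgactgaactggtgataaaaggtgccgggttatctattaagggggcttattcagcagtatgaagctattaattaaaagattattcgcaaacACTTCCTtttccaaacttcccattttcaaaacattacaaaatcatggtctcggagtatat
A second annotated Ly6c2 start, whose window chr15:75111938-75112137 overlaps the one shown and is not printed, had 2 ETS cores. The ETS core was found upstream of Ly6c2 and, on the opposite strand, of Chil3, and the C/EBP motif upstream of the second Plac8 start. In windows of the same length, the ETS core was in 6.34% and the C/EBP motif in 7.47% of the 32851 mouse promoters of the table. Counted by gene, which can have several promoters, these were 7.32% and 8.55% of 27025 genes. The shares that follow are also counted by gene. Of the 529 genes higher in the monocyte-like cells (below), 406 were matched to a promoter, and 13.8% of these held the ETS core and 8.37% the C/EBP motif, against 9.46% and 7.62% of the 3256 matched genes among all measured ones. The windows of S100a6 and Ccr2 held neither. A match is a description of letters and was not tested as a binding site.

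The monocyte-like cells were RNA-rich next to the other cells. They held 4021 to 56911 UMIs (median 9915) and at the median 2885 genes, whereas the other cells held 5376 UMIs and 2321 genes at the median, and the median mitochondrial share was 2.18% in the monocyte-like and 1.34% in the other cells. This was not particular to them, because the border associated macrophage-like cells described below held 9594 UMIs and 3200 genes at the median. A gate on a fixed number of UMIs is also reached more easily by cells with more UMIs. The monocyte-like cells could be divided further. They fell into 2 ranges by the share of UMIs in 14 microglia genes, whose median in the other cells was 4.13%. In 49 cells (22 hCD33m, 12 hCD33M, 15 Control), those at or under 25% of that median, the share was at most 0.803% with a median of 0.197%, and these cells had a median of 9473 UMIs. In the remaining 15 cells (8 hCD33m, 4 hCD33M, 3 Control) it was 1.30% to 4.07% with a median of 2.497%, and at the median these cells held 16096 UMIs from 4158 genes. The 15 cells thus combined gate genes, microglia genes and a higher UMI count. They held 125529 of the 317359 UMIs of the hCD33m monocyte-like cells, 119080 of 236879 in hCD33M and 59595 of 214399 in Control. Sums over all 64 cells therefore weigh these cells most in hCD33M, and levels per library below carry that difference. No cell lay between 0.803% and 1.30%. Whether droplets with more than 1 cell make up the 15 was not tested, and results are for all 64 cells unless the 49 cells of low microglial share are named.

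**Figure D1:**
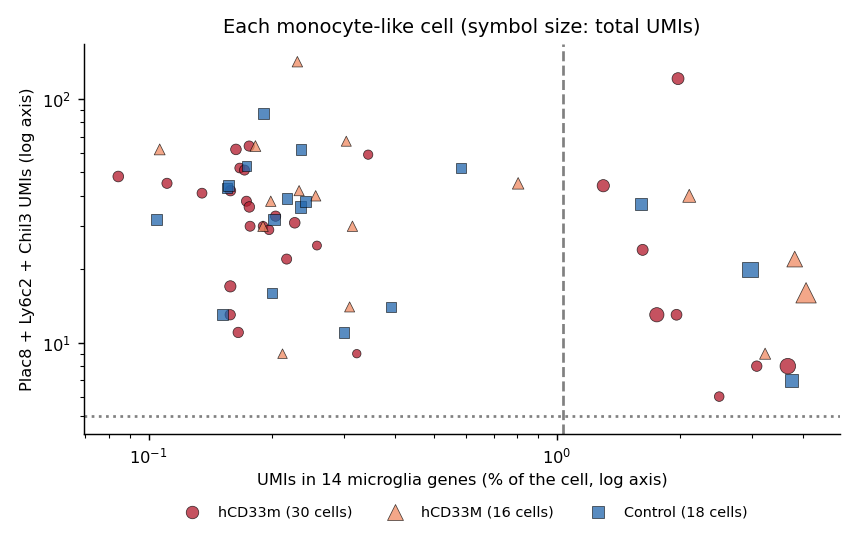
Each symbol is 1 of the 64 monocyte-like cells, with the percent of its UMIs in 14 microglia genes on the horizontal log axis and its Plac8, Ly6c2 and Chil3 UMIs on the vertical log axis. The dashed line, at 25% of the median of the other cells, separates 49 cells on the left from 15 on the right, which include the cells with the most UMIs, and the dotted line marks the gate of 5 UMIs.

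The gate genes were close to absent from the remaining cells. Of all passing cells, 17488 had no UMI of the 3 genes, 114 had 1 to 4, none had exactly 5, and the monocyte-like cells had 6 to 142 with a median of 34.5. The 10 cells with 3 or 4 UMIs had Plac8 UMIs only, and 9 of them had at most 0.335% of their UMIs in microglia genes. An hCD33m cell among them held 3 gate UMIs and 72 UMIs of Fn1, S100a6, S100a4 and Ccr2, and another held 3 gate UMIs and 70 of these marker UMIs. Just inside the threshold, among the 7 cells with 6 to 9 gate UMIs, some were of another kind. The hCD33m cell with 6 gate UMIs, the Control cell with 7 and an hCD33m cell with 8 held no UMI of those 4 markers, and 2.497%, 3.76% and 3.68% of their UMIs were in microglia genes. By contrast an hCD33m cell and an hCD33M cell with 9 gate UMIs each held some of the 4 markers, with 0.323% and 0.213% of their UMIs in microglia genes. Around the threshold, then, several excluded cells carried more monocyte marker UMIs than several included ones.

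The share of passing cells that were monocyte-like was 0.494% in hCD33m (30 cells, exact Clopper-Pearson 95% interval 0.334% to 0.705%), 0.280% in hCD33M (16 cells, 0.160% to 0.455%) and 0.306% in Control (18 cells, 0.181% to 0.482%). The intervals overlap and cover counting error only. The hCD33m share was 1.62 times that of Control (95% interval 0.873 to 3.08) and 1.76 times that of hCD33M (0.932 to 3.47), and the hCD33M share was 0.917 times that of Control (0.438 to 1.91). Among the 49 cells of low microglial share the ratio of hCD33m to Control was 1.42 (0.706 to 2.95). At this gate a difference between libraries in the number of monocyte-like cells was not detectable. It turned on the gate, because the 10 cells with 3 or 4 gate UMIs were 7 from hCD33m, 2 from hCD33M and 1 from Control. With a gate of 3 UMIs there were 37, 18 and 19 cells, and the hCD33m share was 1.89 times that of Control (1.06 to 3.48) and 1.93 times that of hCD33M (1.07 to 3.61), with intervals that left out 1. With a gate of 10 UMIs the ratio of hCD33m to Control was 1.48 (0.776 to 2.92). All these ratios divide by all passing cells, including those with few UMIs. At least 2000 UMIs were held by 4959 passing cells of hCD33m, 3923 of hCD33M and 4115 of Control. Of these cells 0.605%, 0.408% and 0.437% were monocyte-like at the main gate, so hCD33m stood less far above the other libraries. Whether the intervals at the gate of 3 UMIs would leave out 1 on this count was not tested.

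Levels were compared as sums of UMIs over all cells of a class, scaled to CPM. A gene was measured when either class reached 50 CPM, and was called when the pooled ratio was at least 2-fold, its exact 95% counting interval left out 1 and the ratio had the same direction in each of the 3 libraries. Of 4094 measured genes, 529 (12.9%) were higher and 707 (17.3%) lower in the monocyte-like cells than in the other cells. For the 49 cells alone, 705 of 4169 genes (16.9%) were higher and 1264 (30.3%) lower, and 520 of the 529 and 704 of the 707 genes were among these. The median log2 ratio of all measured genes was −0.25 for the 64 cells. Rescaling by the trimmed mean of M values (TMM) turned the split to 678 higher and 439 lower genes, so modest negative ratios depend on the scaling. A gene that reaches 50 CPM in the monocyte-like cells alone cannot be called lower, whereas of the 3640 genes that reached it in the other cells 252 were higher and 707 lower. Because the cells were chosen on expression, these shares are the setting for the gene groups below and are not evidence about them.

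Genes of classical monocytes led the set. Of the 15 listed 12 were measured and higher, of which Lyz2 and Ms4a6c alone reached 50 CPM in the other cells as well. Fn1, which encodes the matrix protein fibronectin, had the largest ratio of all genes, at 1011, 477 and 667 CPM in the hCD33m, hCD33M and Control monocyte-like cells and 0.216, 0.0653 and 0.171 CPM in the other cells (log2 ratio 12.24, 95% counting interval 11.51 to 13.09). Ccr2 stood at 1409, 1199 and 1805 CPM in the monocyte-like cells and at 15.5, 10.1 and 12.5 CPM in the other cells (log2 6.82). The calcium-binding protein genes S100a6 (1724, 1233 and 2080 CPM, against 6.43, 2.61 and 1.78) and S100a4 (1579, 1017 and 1632 CPM, against 4.60, 1.40 and 2.33) were 8.77 and 8.94 log2 units higher. In each of these 4 genes every library's monocyte-like cells lay far above every library's other cells. Lyz2, which encodes the antibacterial enzyme lysozyme, was the most abundant gene of the list, at 24474, 15557 and 29394 CPM in the monocyte-like cells and 549, 448 and 539 CPM in the other cells (log2 5.49). Mgst1 differed by 8.81, Hp, which encodes haptoglobin, by 8.77, Ms4a4c by 6.34, F13a1, the clotting factor XIII subunit, by 5.98, and Ms4a6c by 3.73 log2 units. Vcan, Thbs1 and Ly6a were under 50 CPM in both classes. Of the 12 genes listed for nonclassical monocytes 7 were measured. None of them reached 50 CPM in the other cells, where the list summed to 28.1 CPM, so that their direction followed from the minimum. They included Ace (93.7 against 0.35 CPM, 8.06), the integrin chain Itgal (213 against 0.87 CPM, 7.94), Ear2 (161 against 0.87 CPM, 7.54) and Nr4a1 (87.2 against 1.52 CPM, 5.84), of which Ace, Ear2 and Nr4a1 lost their calls when 39 cells with UMIs of other lineage lists (mostly the B cell gene Ighm) were left out.

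**Figure D2:**
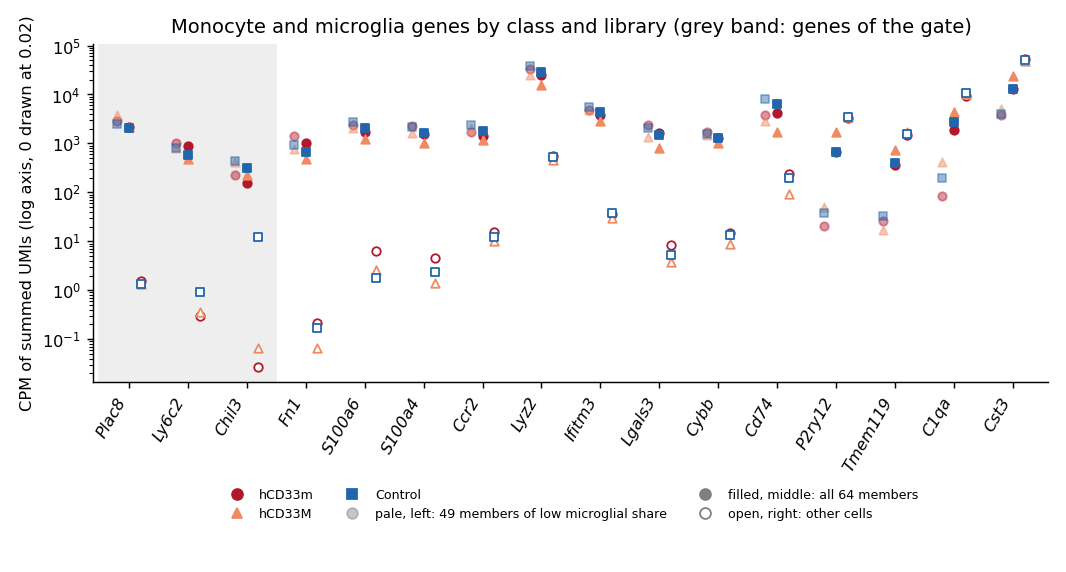
Levels of 16 genes in CPM of summed UMIs (log axis) by library, for the 49 monocyte-like cells of low microglial share (pale), all 64 monocyte-like cells (filled) and the other cells (open), with the 3 gate genes in the grey band. Fn1, S100a6, S100a4, Ccr2, Lyz2 and Ifitm3 were higher in the monocyte-like cells of every library, and P2ry12, Tmem119, C1qa and Cst3 were lower, more so in the pale symbols. P2ry12 and Tmem119 are among the genes by which the 49 cells were chosen.

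The given markers Plac8, Ly6c2, Chil3, Fn1 and S100a6 were each higher in all 3 libraries, and the last 2 played no part in the gate. Thinning every cell to 4000 UMIs, so that depth could not set the share of cells with a UMI, left Ccr2 in 89.1% of the monocyte-like cells and 2.70% of 2000 other cells, S100a4 in 89.1% against 0.80%, and Fn1 in 56.2% against none. Unthinned, these shares were 93.8% against 4.94% for Ccr2, 92.2% against 1.19% for S100a4 and 62.5% against 0.10% for Fn1, at median depths of 9915 and 5376 UMIs. The microglia gene P2ry12 was found in 29.7% of thinned monocyte-like cells and 12.2% of the thinned cells of low microglial share, against 99.8% of the other cells. P2ry12 is among the 14 genes by which the cells of low microglial share were chosen, so the 12.2% follows from that choice. Other genes among the 15 with the largest ratios were Gm9733 (log2 11.52, counting interval 9.91 to 13.83), Ms4a8a (10.56), Pdlim1 (10.50), Gm5150 (10.10), Gpr141 (9.95), Rnd3 (9.54), Hopx (9.34), Sirpb1c (9.20), the giant scaffold protein gene Ahnak (9.12), Gda (9.05) and the interferon-induced transmembrane gene Ifitm6 (8.97). Gm9733, Ms4a8a and Pdlim1 had 46 to 70 UMIs in all, so their ratios rest on few molecules.

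Adhesion genes divided, and the list as a whole was not high. Of 13 measured adhesion and rolling genes 6 were higher and 2 lower (3 with the 49 cells), with a median of 0.46, and the list summed to 3608 CPM in the monocyte-like cells, 2900 CPM in the 49 cells and 5004 CPM in the other cells. None of the 7 that reached 50 CPM in the other cells was higher. The higher ones passed the minimum through the monocyte-like cells, with the integrin chains Itgb7 (105 CPM in the monocyte-like cells, 0.42 CPM in the other cells, log2 7.96) and Itga4 (358 against 3.42 CPM, 6.71) and the hyaluronan receptor Cd44 (177 against 1.90 CPM, 6.54) among the higher ones. Cd177 stood at 176, 33.8 and 84.0 CPM in the hCD33m, hCD33M and Control monocyte-like cells and below 1 CPM in the other cells. Of 15 measured genes of the cytoskeleton and membrane of motile cells 11 were higher and none lower (5 of the 9 that reached 50 CPM in the other cells), including the intermediate filament gene Vim (814 against 4.37 CPM, 7.54), Crip1 (1906 against 14.02 CPM, 7.09), Lsp1 (825 against 66.6 CPM, 3.63) and the actin crosslinker Flna (321 against 27.0 CPM, 3.57). Of 13 measured S100, annexin and galectin genes 11 were higher and 1 lower, and of the 3 that reached 50 CPM in the other cells 1 was higher and 1 lower. Lgals3, which encodes galectin-3, stood at 1604, 806 and 1511 CPM in the monocyte-like cells and 8.35, 3.72 and 5.31 CPM in the other cells, Anxa2 differed by 7.62 and Anxa1, which encodes an anti-inflammatory annexin, by 6.28 log2 units. Of 17 genes of extracellular matrix and coagulation in the files 4 were measured, all through the monocyte-like cells, so that their direction followed from the minimum. Beside Fn1 and F13a1 these were Tgfbi (295 against 31.4 CPM) and the urokinase receptor gene Plaur (66.4 against 11.4 CPM).

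Interferon-stimulated genes were higher in 16 of 18 measured members with none lower, and in 14 of 15 for the 49 cells. Of the 3 that reached 50 CPM in the other cells 2 were higher. The restriction factors Ifitm3 (3813, 2900 and 4370 CPM in the hCD33m, hCD33M and Control monocyte-like cells, against 36.9, 30.0 and 38.5 CPM in the other cells) and Ifitm2 (904, 819 and 1278 CPM, against 9.60, 7.74 and 7.91 CPM) differed by 6.71 and 6.85 log2 units. Mndal (log2 6.12) and Ifi27l2a (5.39), of which Ifi27l2a was chosen after its values were seen, were high in all 3 libraries too. Genes that mark an acute interferon response were uneven, and they too were picked out after their values were seen. Rsad2 was 3.69 log2 units higher with all 64 cells and 2.36 with the 49, Ifit3 2.80 and 0.96, and Isg15 2.99 and 2.11. Oxidase and granule genes were higher in 9 of 12 measured members and none was lower, or in 4 of the 7 that reached 50 CPM in the other cells. Cybb, the catalytic subunit of the phagocyte oxidase, stood at 1289, 1017 and 1283 CPM against 15.1, 8.88 and 13.2 CPM, the leukotriene B4 receptor gene Ltb4r1 at 59.9 against 0.65 CPM, and the glutathione reductase gene Gsr at 248 against 16.6 CPM. Of 10 measured pattern recognition genes 4 were higher, among them the C-type lectins Clec12a (log2 6.20) and Clec4a1 (5.54), and 2 were lower (4 with the 49 cells), among them the lipopolysaccharide co-receptor Cd14 (107 against 368 CPM, −1.79). Of the 7 pattern recognition genes that reached 50 CPM in the other cells 1 was higher and 2 were lower.

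Antigen presentation genes were higher in 8 and lower in 1 of 14 measured members, or in 6 and 1 of the 12 that reached 50 CPM in the other cells. Cd74, the class II invariant chain, stood at 4232, 1684 and 6325 CPM in the hCD33m, hCD33M and Control monocyte-like cells and 237, 94.7 and 196 CPM in the other cells (log2 4.49). The class II chains H2-Aa, H2-Ab1 and H2-Eb1 differed by 4.26, 4.09 and 3.72 and their transactivator Ciita by 5.59 log2 units, and these 4 calls were lost when 39 cells with UMIs of lymphoid or plasmacytoid lists, mostly Ighm, were left out. These averages came from part of the cells. The 4 genes H2-Aa, H2-Ab1, H2-Eb1 and Cd74 summed to more than 10000 CPM in 16 of the 64 cells (7 hCD33m, 2 hCD33M, 7 Control), which held 88.6% of their UMIs, and to less than 1000 CPM in 34 cells. The median cell had 847 CPM and the highest 57449 CPM. Of the 16 cells, 13 were of low microglial share (4 hCD33m, 2 hCD33M, 7 Control). The border associated macrophage-like cells described below were as uneven, with 49 of 179 cells above 10000 CPM holding 85.2% of the class II UMIs.

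Genes of microglia were low. All 14 measured microglia genes were lower, with a median log2 ratio of −1.72 for all 64 cells. The 49 cells were set apart by a low share of UMIs in these same 14 genes, so their lower values for these genes, with a median of −5.88, follow from that split and are given as a description. P2ry12, which encodes the receptor by which microglia sense nucleotides, stood at 674, 1676 and 672 CPM in the hCD33m, hCD33M and Control monocyte-like cells and 3366, 3528 and 3422 CPM in the other cells (log2 −1.81), and at 34.4 CPM in the 49 cells (−6.64). In hCD33M, 231 P2ry12 UMIs came from a single cell of higher microglial share with 56911 UMIs. Tmem119 differed by −1.72 and −5.94, Sparc by −1.68 and −6.04 and Fcrls by −1.73 and −6.48 log2 units with the 64 and with the 49 cells. Csf1r, the receptor for macrophage colony-stimulating factor on which both lineages depend, differed least, at 1563 against 3616 CPM (−1.21, or −2.43 with the 49 cells), and its call was lost under TMM scaling. Cx3cr1, on which the sort was made and which drives Cre, was detected in 60 of the 64 cells at 1056, 1942 and 1082 CPM, against 3643, 3850 and 3542 CPM in the other cells (−1.46, or −3.39 with the 49 cells). Of the other sort genes Itgam, which encodes CD11b, stood at 356 against 668 CPM (−0.91, not called), and Ptprc, which encodes CD45, was higher at 822, 946 and 1129 CPM in the monocyte-like cells against 414, 466 and 465 CPM in the other cells (1.08). Ptprc was thus higher in the monocyte-like cells of every library. The paper gives the sort as CD45low in its results and as CD45+ in its methods, so how low the protein gate was is not settled.

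Transcription factors of microglia were lower in 9 of 11 measured members (median −1.49), and in all 11 for the 49 cells (−3.31). Sall1 stood at 113, 224 and 121 CPM in the hCD33m, hCD33M and Control monocyte-like cells and 429, 435 and 427 CPM in the other cells, and at 6.46 CPM in the 49 cells (log2 −6.06). The 49 cells were chosen for a low share of 14 microglia genes, Sall1 among them, so their values here are given as a description. Maf, Bhlhe41 and Mef2c had ratios of −1.99 to −1.56 with the 64 cells. Of 13 measured myeloid factors 4 were higher and none lower (5 higher and 2 lower of 14 with the 49 cells), the higher ones including Cebpb (786 against 201 CPM, 1.97), Klf4 (1.77) and Klf13 (1.68). Of the 12 myeloid factors that reached 50 CPM in the other cells 3 were higher and none lower. Spi1, which encodes the PU.1 factor shared by all macrophages and monocytes, had 579 against 457 CPM (0.34) and was not called.

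Complement, lysosome and clearance genes were lower more often than higher. Of 11 measured complement genes 7 were lower, with C1qa at 1894, 4327 and 2785 CPM in the monocyte-like cells and 9397, 10472 and 10946 CPM in the other cells (log2 −1.82, or −5.63 with the 49 cells), and 3 were higher, which were the central component C3 (157 against 0.88 CPM, 7.49), Cd93 (5.11) and the properdin gene Cfp (4.89). Of the 8 complement genes that reached 50 CPM in the other cells 7 were lower and none was higher. The direction of the 3 higher ones thus followed from the minimum. Among cathepsins, cystatins and lysozyme 6 of 14 were lower and 2 higher. The protease inhibitor gene Cst3 stood at 16273 against 50826 CPM (−1.64) and the protease gene Ctsd at 1898 against 7164 CPM (−1.92), whereas Lyz2 was higher as given above. Phagocytosis and lipid receptor genes were lower in 9 and higher in 3 of 15, with the engulfment receptor Mertk at 142 against 515 CPM (−1.86, or −5.32 with the 49 cells) and the scavenger receptor Msr1 at 63.7 against 2.43 CPM (4.72). Of the 12 phagocytosis and lipid receptor genes that reached 50 CPM in the other cells 1 was higher and 9 were lower. Purinergic and sensing genes were lower in 9 of 10 (median −1.70). Apoe, the lipid carrier, was higher, at 4027, 2335 and 3666 CPM against 1138, 810 and 1227 CPM (1.68).

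**Figure D3:**
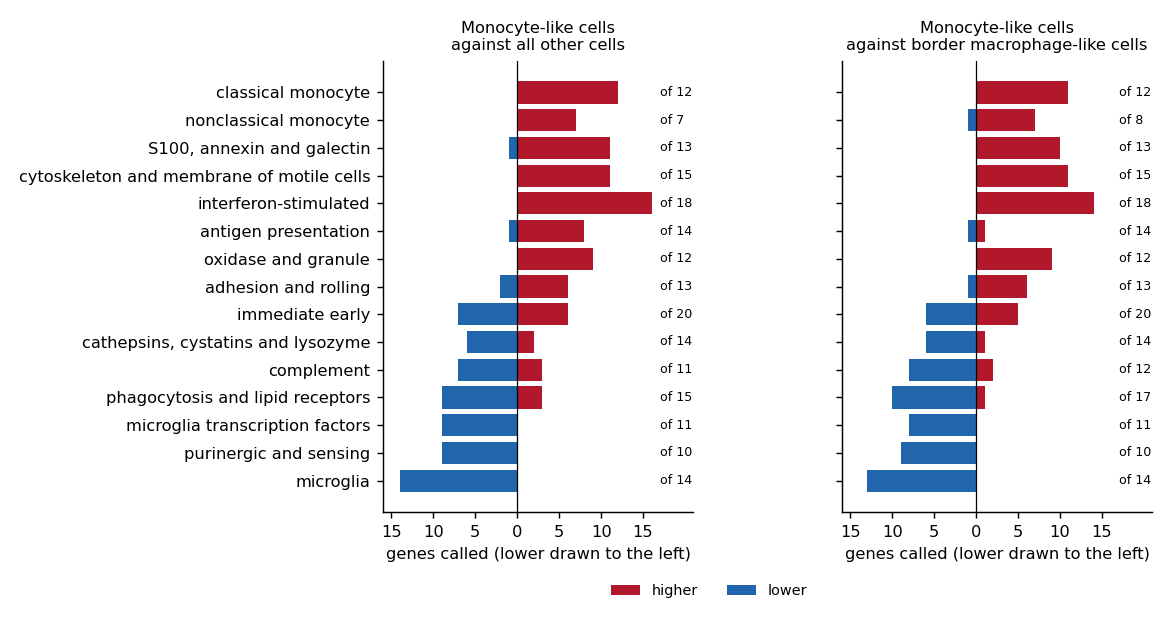
Bars give how many genes of 15 fixed lists were called higher (red, to the right) or lower (blue, to the left) in the monocyte-like cells, against all other cells in the left panel and against border associated macrophage-like cells in the right panel, with the number measured beside them. All 14 microglia genes were lower in the left panel, and antigen presentation had 8 higher genes on the left and 1 on the right.

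Signalling genes showed fewer calls. Ccr2 was the only higher one of 5 measured chemokine receptors and the other 4 were lower. Only these 4 reached 50 CPM in the other cells, so the direction of Ccr2 followed from the minimum. Of 10 measured chemokine and cytokine genes 3 were higher, which were Il1b (100 against 4.24 CPM, log2 4.56), Ccl6 (945 against 129 CPM, 2.88) and Ccl9 (397 against 94.8 CPM, 2.07), and 2 were lower. Of the 8 chemokine and cytokine genes that reached 50 CPM in the other cells 2 were higher and 2 lower. Of 15 cytokine and growth factor receptors 3 were higher and 4 lower, the transforming growth factor beta receptors Tgfbr1 (401 against 1122 CPM, −1.49) and Tgfbr2 (138 against 354 CPM, −1.36) among the lower ones. Of 7 Fc receptor genes Fcgr4 was higher (79.4 against 19.6 CPM, 2.02) and 2 were lower. Of the 6 that reached 50 CPM in the other cells none was higher and 2 were lower. Glycolysis genes were higher in 4 of 12 (Gpi1, Pgk1, Pkm and Eno1, by 1.13 to 1.48 log2 units) and none was lower. Of the 10 that reached 50 CPM in the other cells 3 were higher. Cell cycle genes reached 50 CPM in 2 cases, of which the chromatin gene Hmgb2 was higher (412 against 123 CPM, 1.74). Cytoplasmic ribosomal protein genes, examined after their values were seen, were higher in 71 of 80 with none lower (median 1.37) and made up 175128 CPM in the monocyte-like cells and 67290 CPM in the other cells. Of the genes with the lowest ratios, Ccdc152 had 3 UMIs in the monocyte-like cells (3.90 against 65.2 CPM, −4.06, counting interval −6.34 to −2.51), and Ddah2, Sema4c, Bcl2l1, Gm26669, B4gat1, Gm10138, Gmpr, A830008E24Rik, Etv1, Mgll, Phgdh and Med12l had ratios between −2.82 and −2.31 on 6 to 15 UMIs each.

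Lists of other cell types gave few measured genes. None of 10 neutrophil genes held in the files was measured. Their sum was 59.9, 33.8 and 42.0 CPM in the monocyte-like cells of hCD33m, hCD33M and Control, and 9.46, 18.3 and 180 CPM in the other cells. It was thus higher in the monocyte-like cells of hCD33m and hCD33M and lower in those of Control. The rule for the set leaves cells rich in S100a8 and S100a9 among the other cells. Of the other cells, 20 held at least 3 UMIs of the neutrophil list, and the highest held 159678 CPM against a median of 0. The direction in Control can therefore follow from the rule, and no difference between libraries is drawn from it. In the 49 cells the collagenase gene Mmp8 reached 56.0 CPM and was called higher (log2 6.47). S100a9 had no UMI and S100a8 had 1 UMI in the 64 cells, both used by the rule. The gene list of T and NK cells summed to 14.3 CPM (at most 217 CPM in a cell), and erythroid genes to 1.30 CPM. Of 9 dendritic cell genes only Batf3 was measured, at 69.0 against 53.1 CPM (log2 0.38, not called), and the list summed to 151 CPM and to at most 1273 CPM in a cell. Of 3 measured plasmacytoid dendritic cell genes Siglech, which microglia also express, and Tcf4 were lower. At least 3 UMIs of the plasmacytoid list were held by 40 of the 64 monocyte-like cells and by 12775 of the 12933 other cells, and at least 3 UMIs of the B cell list by 34 and by 4573 of them. The B cell list was carried by Ighm, which had 295 CPM in the monocyte-like and 285 CPM in the other cells (0.05). Without Ighm, 4 of the 64 cells had 3 or more UMIs of the B cell, T and NK cell or plasmacytoid lists. The endothelial list had 1 measured gene, the phospholipid transfer gene Pltp (88.5 against 3.65 CPM, 4.60), and the list of astrocyte, oligodendrocyte and neuron genes had 1, the myelin gene Mbp (87.2 against 25.03 CPM, 1.80), detected in 37 of the 64 cells.

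Border associated macrophages live in the meninges, around vessels and in the choroid plexus, and were taken as a second class of brain macrophages for comparison. The 179 cells (89 hCD33m, 45 hCD33M, 45 Control) with at least 5 UMIs of Mrc1, Pf4, Cd163 and Lyve1 and at least 2000 UMIs made up this class, and 2 monocyte-like cells would also have passed that gate. Of 4044 measured genes 436 (10.8%) were higher and 584 (14.4%) lower in the monocyte-like cells. S100a6 stood at 1672 against 2.03 CPM (log2 9.69) and Lgals3 at 1332 against 1.62 CPM (9.68). Plac8, S100a4 and Gda had 2, 3 and 1 UMIs in the macrophage-like cells, so their ratios of 11.36 (95% counting interval 9.50 to 14.41), 10.19 (8.64 to 12.47) and 9.15 (6.65 to 14.46) are wide. Fn1, Hp, Napsa and Ly6c2 were among the genes with no UMI in the border associated macrophage-like cells. Taking 3 counts over the group as the floor, Fn1 was at least 9.27, Ly6c2 at least 9.11, Hp at least 8.35 and Napsa at least 8.28 log2 units higher in the monocyte-like cells. F13a1, which many tissue macrophages express, was at 487 against 291 CPM (0.74) and was the only one of 12 measured classical monocyte genes not called. In the other direction Mrc1, the mannose receptor, stood at 29.9 against 1071 CPM (−5.16), Pf4 at 20.8 against 1102 CPM (−5.73), and Cbr2 at 2.60 against 146 CPM (−5.81, counting interval −8.86 to −3.94). Dab2, an endocytic adaptor gene, had 2 UMIs in the monocyte-like cells and 521 CPM in the macrophage-like cells (−7.65, counting interval −10.69 to −5.79), and Ccl24 and Adam33 had 1 UMI each. All 8 measured genes of the border associated macrophage list were lower, a direction that the 2 gates share in fixing. Class II chains did not separate the classes, with H2-Aa at 1371 against 1381 CPM (−0.01) and H2-Ab1 at 1291 against 1314 CPM (−0.03), while Apoe was lower in the monocyte-like cells at 3405 against 17242 CPM (−2.34).

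The monocyte-like cells were not uniform. Among the 49 cells of low microglial share 12 had no Ly6c2 UMI (2 of 22 in hCD33m, 5 of 12 in hCD33M, 5 of 15 in Control) and 37 had at least 1, at medians of 8846 and 9658 UMIs per cell. Ly6c2 belongs to the gate, and a cell without it had to enter through Plac8 or Chil3. Of 3463 measured genes 228 (6.58%) were at least 2-fold higher and 109 (3.15%) lower in the cells without a Ly6c2 UMI, with counting intervals that left out 1. All 11 measured nonclassical monocyte genes were higher in these cells, 6 of which also reached 50 CPM in the cells with a Ly6c2 UMI. Ear2, which encodes a ribonuclease, stood at 555 CPM in the cells without and 80.6 CPM in the cells with a Ly6c2 UMI (2.78), the adhesion receptor gene Adgre4 at 488 against 83.4 CPM (2.55), Pglyrp1 at 373 against 75.02 CPM (2.31), Spn, which encodes CD43, at 163 against 36.1 CPM (2.17), the angiotensin-converting enzyme gene Ace at 287 against 69.5 CPM (2.05) and Nr4a1 at 258 against 80.6 CPM (1.68). Eno3 was found in 6 of the 12 cells at 124 CPM and in none of the 37. Of 13 measured classical genes 5 were lower and none higher (median −0.79), among them Fn1 at 115 against 1373 CPM (−3.58), F13a1 at 182 against 845 CPM (−2.22), Mgst1 at 163 against 503 CPM (−1.63) and Hp at 277 against 606 CPM (−1.13). Ccr2 differed little, at 1770 against 2134 CPM (−0.27), and so did Plac8, at 2755 against 3004 CPM (−0.12). The lipid regulator gene Pparg was at 76.5 against 5.56 CPM (3.78) and Cd300ld at 249 against 22.2 CPM (3.48), both chosen after their values were seen.

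Per cell, the nonclassical list summed to a median of 3501 CPM (118 to 7710) in the 12 cells without Ly6c2 UMIs and 301 CPM (0 to 4427) in the 37 cells with them, and the classical list to medians of 25546 CPM (15916 to 49098) and 47748 CPM (17615 to 72214). The ranges overlapped for both lists. Across the 49 cells the 2 lists had a Spearman rho of −0.62 and a Pearson r of −0.63, a description over cells that share 3 libraries and in which the lists are shares of the same UMI total. Chil3 stood at 507 CPM in the cells without and 295 CPM in the cells with a Ly6c2 UMI (0.78, not called).

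**Figure D4:**
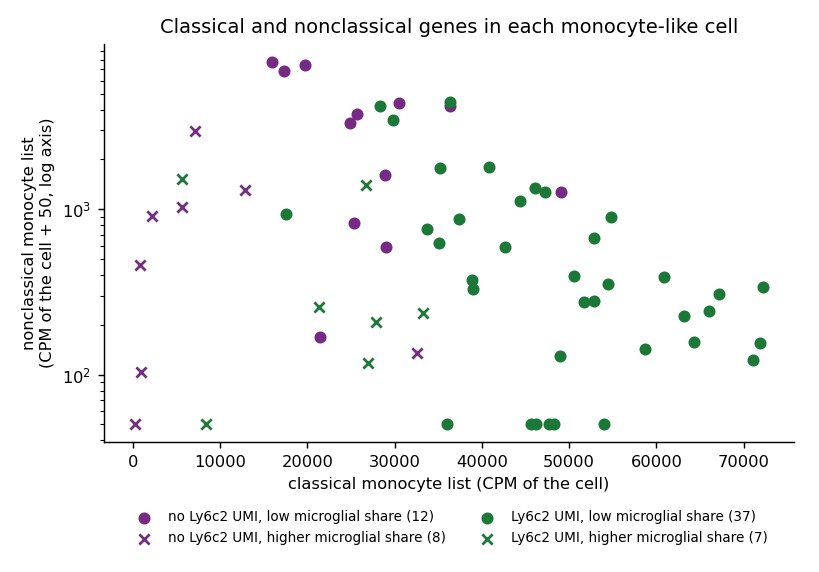
Each symbol is a monocyte-like cell, with its CPM summed over the classical monocyte list on the horizontal axis and over the nonclassical list, plus 50, on the vertical log axis. The 12 cells of low microglial share without a Ly6c2 UMI (purple circles) lay mostly at the upper left and the 37 with one (green circles) spread towards the lower right, and the 15 cells of higher microglial share (crosses) lay at lower classical sums.

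Within the monocyte-like cells the libraries were compared by the same 2-fold rule of size, without a test. Of 3739 measured genes 102 (2.73%) were higher and 102 (2.73%) lower in hCD33m than in Control. For hCD33M against Control these were 209 (5.35%) and 104 (2.66%) of 3910, and for hCD33m against hCD33M 104 (2.66%) and 184 (4.71%) of 3907. Many of these calls were not made without the 15 cells of higher microglial share. Of them, 32 of the 102 higher and 54 of the 102 lower genes of hCD33m against Control were called the same way in the 49 cells, and 60 of 209 and 49 of 104 for hCD33M against Control. In the 49 cells as a whole, 89 of 3439 genes (2.59%) were higher and 112 (3.26%) lower in hCD33m against Control, and 155 of 3681 (4.21%) and 87 (2.36%) in hCD33M against Control. The microglia list was higher in 7 of 14 genes in hCD33M than in Control with all 64 cells (median 1.02) and in 1 of 10 with the 49 (0.54), which were chosen for a low share of it. The extremes rested on few molecules. The largest ratios of hCD33m to Control were those of Hist1h1d (4.52), Cxcl10 (4.34), Rgs1 (4.24), Dcaf13 (3.76) and D830025C05Rik (3.60), each with 1 UMI in Control and with lower bounds of the counting interval from 0.94 to 1.95, and Cxcl10 was also the largest of hCD33M to Control (4.44), although only 5 of the 64 cells held it and its 24 UMIs in hCD33M came from 1 cell. On the lower side Pltp had log2 ratios of −3.15 for hCD33m to Control and −3.14 for hCD33m to hCD33M, and of −3.48 and −3.98 with the 49 cells.

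Some lists differed between libraries, and the mix of cells described above differed as well. Nonclassical monocyte genes were lower in 7 of 10 measured members in hCD33m than in hCD33M (median log2 −1.40), and higher in 3 of 10 in hCD33M than in Control (0.87). With the 49 cells of low microglial share these counts were 6 of 10 (−1.68) and 5 of 10 (1.18). Among the 49, cells without Ly6c2 UMIs made up 2 of 22, 5 of 12 and 5 of 15 cells of hCD33m, hCD33M and Control. Ear2 stood at 56.7, 300 and 163 CPM and Ace at 47.3, 148 and 103 CPM in hCD33m, hCD33M and Control. Fabp4 had a log2 ratio of −3.12 for hCD33m to hCD33M, on 19 UMIs from 5 cells. Antigen presentation genes were lower in 6 of 14 in hCD33M than in Control (median −0.72), where 2 of 16 and 7 of 18 cells were those rich in class II UMIs. With the 49 cells they were lower in 5 of 13, where cells rich in class II UMIs were 2 of 12 and 7 of 15. Of 13 measured classical monocyte genes 1 was lower in hCD33m than in Control (−0.15) and 2 were lower in hCD33M than in Control (−0.81). For hCD33M against Control 0 of the 13 had a ratio above 0. Against hCD33M, 3 of 12 were higher in hCD33m (0.59). The part of cell mix in these differences was not tested, and genotype, library and the mice pooled cannot be told apart.

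Immediate early genes respond within minutes to stimulation and to tissue dissociation. The list of 21 genes summed to 7717, 6379 and 4049 CPM in the hCD33m, hCD33M and Control monocyte-like cells, and to 12484, 9577 and 5866 CPM in the other cells of these libraries, so the order of the libraries was the same in both classes. Without the 15 cells of higher microglial share the sums were 6886, 5204 and 3869 CPM. Fos stood at 791, 397 and 177 CPM in the monocyte-like cells and 524, 248 and 57.9 CPM in the other cells, with cell medians of 552, 409 and 99.7 CPM in the monocyte-like cells. Jun stood at 829, 697 and 280 CPM in the monocyte-like cells and 2402, 1855 and 1033 CPM in the other cells, and at 532, 238 and 168 CPM in the 49 cells. Of 20 measured genes 6 (Fosb, Fos, Dusp1, Egr1, Jun and Btg2) were higher in hCD33m than in Control within the monocyte-like cells and none lower, with a median of 0.77, and in the other cells 10 of 17 were higher, with a median of 1.22. Of all genes measured for this contrast, 2.73% were called higher within the monocyte-like cells, against 0.452% higher (17 of 3763) and 0.186% lower within the other cells. Without the 15 cells, 7 were higher and 2 lower (0.62), and the ratio of Egr1, 1.85 with all 64 cells, was −2.01.

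Klf2, Ier2, Klf4 and also Fos had smaller ratios of hCD33m to Control in the monocyte-like cells than in the other cells. For Fos the levels in hCD33m and Control were 791 and 177 CPM in the monocyte-like cells and 524 and 57.9 CPM in the other cells. Klf2, which encodes a zinc finger transcription factor, stood at 473, 363 and 415 CPM in the monocyte-like cells of hCD33m, hCD33M and Control, a log2 ratio of hCD33m to Control of 0.19 with a counting interval of −0.20 to 0.58, and at 184, 84.4 and 21.9 CPM in the other cells, a ratio of 3.08. Ier2 had ratios of 0.13 (−0.47 to 0.74) in the monocyte-like and 2.07 in the other cells, and Klf4 of 0.79 (0.20 to 1.41) and 3.46. With the 49 cells the ratios of Klf2, Ier2 and Klf4 were 0.28, 0.11 and 1.28. The difference between the ratios of the 2 classes was not tested, because each genotype had 1 library.

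**Figure D5:**
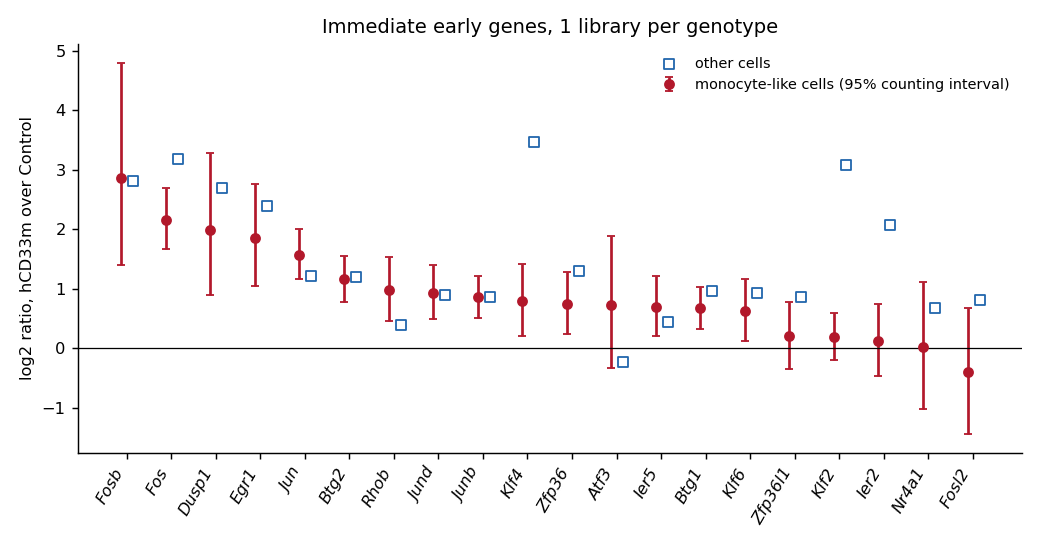
Log2 ratios of hCD33m to Control for 20 immediate early genes, in the monocyte-like cells (red points with 95% counting intervals from UMI sums) and in the other cells (open squares), with 1 library per genotype. Fosb, Fos, Dusp1, Egr1 and Jun had the largest ratios in the monocyte-like cells, and the squares of Klf4, Klf2, Ier2 and Fos lie above the intervals of these cells.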

How the data were processed

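The authors aligned 10x Chromium 3′ reads to mm10 with Cell Ranger (STAR) and deposited 1 table of UMI counts per library, imported into Seurat with limits on barcodes (over 200 genes) and on genes (present in 3 or more cells), so a gene listed nowhere may have been removed. Their stated limits on genes and mitochondrial counts leave more cells here than they retained. Groups were taken from the sample titles.

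UMIs were summed per class and library and scaled to CPM. Intervals are exact (Poisson for levels, conditional binomial for ratios, Clopper-Pearson for shares, 95%) and cover counting error only, since cells are not replicates and each genotype had 1 library. Depth was 4021 to 56911 UMIs per monocyte-like cell. On simulated counts with 200 changed genes of 3749 measured, the call rule for monocyte-like against other cells recovered 199 and called 0 unchanged genes. The simulated sums were drawn from 1 profile per class, so they held no variation between cells or libraries beyond counting. Changes were 3-, 4- or 8-fold up or down, in genes at 50 CPM or more in the other cells. The simulation therefore says nothing of error near 2-fold or from mixed cells. Alternatives were other gates, scalings (edgeR 4.0.16 TMM, DESeq2 1.42.0 median of ratios), minimums, folds and omitted cells or libraries. Scripts ran under Python 3.11.15 (scipy 1.17.1, numpy 2.4.6). Named were gate, marker and list genes by a fixed rule of largest ratios. Apoe, Cd44, Napsa, Spi1 and Ddx3y were named after their values were seen. The members, rule and lists were chosen with earlier results of these data known. Human CD33 was not analysed here, and some listed genes are counted but not reported by name.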

Additional observations from a re-analysis of the deposited data

Results flagged for a closer look

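Outside the cells that passed the limits, 4 barcodes held at least 5 UMIs of Plac8, Ly6c2 and Chil3. There were 1 in hCD33m and 2 in Control with 11.5%, 12.3% and 17.1% of their UMIs in mitochondrial genes, and these 3 had 2155 to 2744 UMIs, 18 to 40 UMIs of Fn1, S100a6, S100a4 and Ccr2, and at most 0.742% of their UMIs in microglia genes. The other barcode, in hCD33M, was over the gene limit with 8017 genes, 60116 UMIs, 5 gate UMIs and 3.47% of its UMIs in microglia genes. No group of samples was large enough for a search for outlying samples.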

How the results depend on the processing

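No paired analysis was possible because each genotype had 1 library. The number of genes higher in the monocyte-like cells was 529, and it became 939 with no CPM minimum, 800 with a 1.5-fold and 215 with a 4-fold call. The 707 lower genes became 439 with TMM scaling, 421 with the median of ratios, 1846 with no CPM minimum, 1309 with a minimum of 20 CPM, 1360 with a 1.5-fold and 48 with a 4-fold call, 1264 without the 15 cells of higher microglial share and 1153 without the 39 cells that held other lineage genes, mostly Ighm. Without the 15 cells, 1166 genes were lower than in the border associated macrophage-like cells (an alternative chosen after seeing the data). A gate of 10 UMIs kept 57 cells and turned the genes lower in hCD33m than in hCD33M to 362. No gene changed direction between the called lists of these alternatives for the comparison with other cells. Leaving out each library in turn gave 517 to 573 higher and 662 to 825 lower genes, and 485 or more of the 529 were kept. Ms4a8a without Control and Pdlim1 without hCD33m were no longer called because they fell under 50 CPM. Without the 39 cells, Ciita, H2-Aa, H2-Ab1, H2-Eb1, Ace, Ear2, Nr4a1, Pglyrp1, Ifi47, Cfp, Fcgr4, Il1b and Atf3 lost their calls while their pooled ratios kept their direction. S100a8 reversed to 1.89 when the cells rich in S100a8 and S100a9 were left out of the other cells, also chosen after seeing the data. Of the named genes' values under the alternatives 2623 stayed called or stayed uncalled, 110 lost a call and 31 gained one. A further 6 values of uncalled genes changed sign, and 1 value of a called gene reversed. The 64 cells limit what can be seen of genes under 50 CPM.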
